A study of Mus musculus with 8 samples.

Results

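The collagen genes are described here in whole mouse skin after inducible loss of Nampt from the epidermis. Members were chosen by name alone: every feature whose symbol reads Col, digits, a, digits, with Col17a1 left out. This gave 43 genes of 36333 in the table, of which 11 encode fibrillar collagens, 9 basement membrane collagens and 23 other collagens. A filter on low counts left 39 of the 43 for the test. The study compared 4 libraries of Nampt-cKO skin with 4 libraries of control skin, sequenced as poly-A RNA. Nampt-cKO mice carried Nampt flox/flox alleles and the KRT5-CreERT2 transgene, in which the keratin 5 promoter drives a tamoxifen-dependent Cre in basal keratinocytes, and received tamoxifen at 100 μg/g once daily for 5 days. Control samples are titled Nampt flox, with libraries named ff (Nampt WT). They were taken to carry the same Nampt flox/flox alleles without the transgene, which the methods do not spell out. All mice were C57BL/6J males labelled 8 weeks old, and the methods place the sequenced skin at Day 19. Tamoxifen is labelled only on the Nampt-cKO samples. The study's description of its time line names both groups, and its UVB experiment gave tamoxifen to both, but for the sequenced controls their own treatment is not spelled out. On that reading of the control genotype, the transgene and loss of Nampt cannot be told apart, since the controls lack both.

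Collagens are extracellular proteins built as trimers of chains that wind into a triple helix. The fibrillar types I, III and V polymerize into the banded fibrils that give dermis its tensile strength, whereas type IV forms the sheet-like network of basement membranes and type VII the anchoring fibrils that hold the epidermal basement membrane to the dermis. Fibril-associated collagens, called FACITs, sit on the surface of fibrils, and type VI makes beaded microfilaments around cells. In skin, types I and III come chiefly from dermal fibroblasts, type VII from keratinocytes and fibroblasts, and type IV from several cell types including vessels.

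Exon reads came to between 39390895 and 52672388 per Nampt-cKO library and between 41206078 and 53762935 per control library. Nampt, the targeted gene, was at 6.09, 6.68, 13.7 and 8.52 RPKM (exon reads scaled to exon length and library size) in Nampt-cKO replicates 1 to 4, against 14.8, 13.9, 13.6 and 11.4 RPKM in control replicates 1 to 4. The library labelled Nampt-cKO replicate 3 lay within the control range, so Nampt alone did not set this library apart from the controls. The reason was not tested. The log2 fold change of Nampt was −0.53 (standard error 0.24, edgeR adjusted p = 0.0974). Without that library the adjusted p was 0.00284, within a range of 0.00284 to 0.216 over the alternatives. Neutrophil markers were higher for 6 of the 6 tested, where 23.8% of all genes tested were higher. Their summed level was 46.4 to 1276 RPKM in Nampt-cKO skin and 2.54 to 4.77 RPKM in control skin. The 1276 RPKM was that of Nampt-cKO replicate 3. Skeletal muscle markers spanned 57.1 to 1755 RPKM in Nampt-cKO skin and 98.3 to 1235 RPKM in control skin, with 0 of 9 past the test. The methods say that mice of both groups were sequenced, and the labels number the replicates without saying that each is a separate mouse. Libraries of 1 group differed by far more than counting noise, for which chi-square per gene is near 1, with a chi-square per gene of 47.5 to 155 between Nampt-cKO libraries and 9.44 to 33.1 between control libraries. The p-values measure this spread, of which a part may be technical. In whole skin, fewer cells of a type and less RNA per cell cannot be told apart.

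Transcripts of the main fibrillar collagens were lower in Nampt-cKO skin, whereas the 2 common type IV chains, Col12a1 and Col28a1 were higher. Of the 39 tested members, 7 were higher and 12 were lower in edgeR's quasi-likelihood test at a Benjamini-Hochberg adjusted p under 0.05, and 20 did not pass. Among all 17286 genes tested, 23.8% were called higher and 22.0% lower. With all libraries, the share of members called lower was thus above that of all genes and the share called higher was below it. These counts were not stable: with single libraries left out in turn, 8 to 15 members were lower and 6 to 10 higher. Whether the shares of the members differ from those of all genes was not tested. The median log2 fold change was −0.17 over the tested members and −0.01 over all genes tested. Overlap of the 2 groups was judged in CPM, here exon reads scaled to library size. Of all 39 tested members, 6 lay wholly above the controls and 11 wholly below, and each of these was called in that direction. Among all genes tested, 23.0% lay wholly above and 22.4% wholly below the controls. Whether the members differ from all genes in this was not tested. Col15a1, which was not called, lay wholly below the controls in RPKM but not in CPM.

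**Figure D1:**
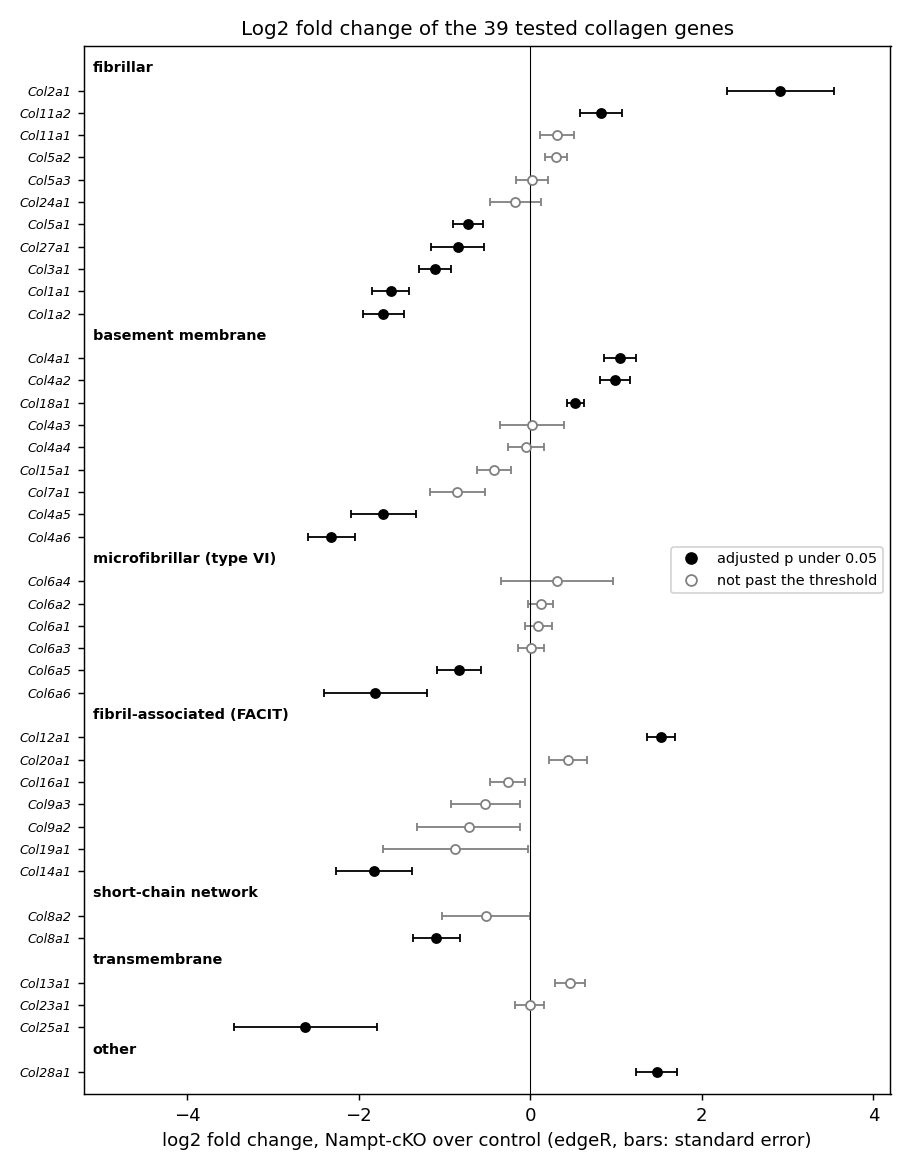
Log2 fold change of Nampt-cKO over control for each of the 39 tested collagen genes, by structural class, with the standard error from edgeR as bars and filled points for an adjusted p under 0.05. Col1a1 (−1.63) and Col1a2 (−1.71) stand at the low end of the fibrillar class, and the type IV chains span from −2.32 for Col4a6 to 1.04 for Col4a1.

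Collagen transcripts, summed over the 43 genes, took a smaller part of the RNA of Nampt-cKO skin. The 43 genes held 0.525%, 0.374%, 0.511% and 0.638% of the exon reads of Nampt-cKO replicates 1 to 4, against 0.731%, 0.929%, 0.911% and 0.962% in control replicates 1 to 4. The groups did not overlap, and the means were 0.512% ± 0.108 in Nampt-cKO skin and 0.883% ± 0.104 in control skin (SD, n = 4 each). Fibrillar collagens held 0.257% ± 0.0668 of exon reads in Nampt-cKO skin and 0.648% ± 0.110 in control skin (SD, n = 4 each), again without overlap. Col1a1, Col1a2 and Col3a1 alone held 0.214% ± 0.0593 in Nampt-cKO skin and 0.601% ± 0.107 in control skin (SD, n = 4 each). Their difference was −0.387 percentage points, beside −0.371 for all 43 genes, so the smaller share lay in these 3 genes. Basement membrane collagens held 0.147% ± 0.0266 in Nampt-cKO skin and 0.133% ± 0.00709 in control skin, and the other collagens 0.109% ± 0.0296 in Nampt-cKO skin and 0.103% ± 0.00220 in control skin, differences smaller than the SD of the Nampt-cKO libraries. By RPKM, which corrects for gene length, fibrillar collagens made up 53.7% ± 5.35 of all collagen transcripts in Nampt-cKO skin and 76.0% ± 3.95 in control skin (SD, n = 4 each). Basement membrane collagens made up 24.4% ± 1.67 in Nampt-cKO skin and 11.9% ± 2.14 in control skin. These shares are sums over the members and carry no test.

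**Figure D2:**
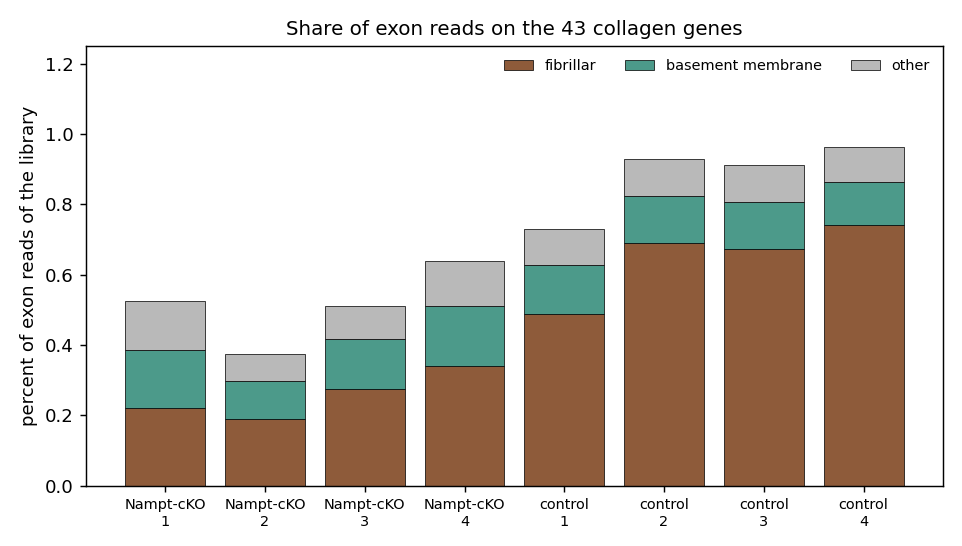
Percent of the exon reads of each library that fell on the 43 collagen genes, stacked by fibrillar, basement membrane and other collagens, with the 4 Nampt-cKO libraries left of the 4 control libraries. The whole bars stand between 0.374% and 0.638% in Nampt-cKO skin and between 0.731% and 0.962% in control skin, and the fibrillar segment differs most.

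Of the 11 fibrillar genes, 5 were called lower, 2 were called higher and 4 were not called, beside 22.0% lower and 23.8% higher among all genes tested. Col1a1 and Col1a2 encode the chains of type I collagen, the main fibril protein of dermis, and Col3a1 encodes type III, which co-assembles with it. All of these were lower. The 200 bases before the RefSeq gene start (GRCm38.p6) are shown for Col1a2 at chr6:4505418-4505617 and Col3a1 at chr1:45311338-45311537, both on the plus strand. Col1a1 had no promoter entry in that reference. Capitals mark matches on either strand to the TATA box letters TATAAA, to the letters CCAAT of a CCAAT box, to the GC box letters GGGCGG or to the letters TGANTCA of an AP-1 motif.
Col1a2: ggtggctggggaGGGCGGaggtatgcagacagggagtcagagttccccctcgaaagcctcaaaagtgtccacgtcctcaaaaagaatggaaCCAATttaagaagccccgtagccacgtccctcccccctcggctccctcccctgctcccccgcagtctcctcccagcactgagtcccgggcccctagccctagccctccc
Col3a1: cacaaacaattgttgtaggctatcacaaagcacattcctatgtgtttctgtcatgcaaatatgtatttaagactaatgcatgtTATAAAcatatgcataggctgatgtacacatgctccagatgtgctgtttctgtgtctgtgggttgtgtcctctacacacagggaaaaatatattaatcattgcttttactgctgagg
The Col1a2 window held a GC box match 188 bases and a CCAAT match 109 bases before the start, and the Col3a1 window held a TATAAA match 117 bases before it. Among 32851 RefSeq promoter windows, 9.96% held a TATA box match, 29.3% a CCAAT match, 31.0% a GC box match and 5.48% an AP-1 match. These are letter matches and not measured binding sites, and their part in the lower levels was not tested.

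Col1a1, on chromosome 11 from 94936224 to 94953042, was at 68.5, 62.9, 88.2 and 108 RPKM in Nampt-cKO replicates 1 to 4, against 193, 301, 260 and 322 RPKM in control replicates 1 to 4. Every Nampt-cKO library lay below every control, and the log2 fold change was −1.63 (standard error 0.22, edgeR adjusted p = 3.43e-04). Col1a2, on chromosome 6 from 4505618 to 4541543, was at 79.9, 71.0, 112 and 140 RPKM in Nampt-cKO skin, against 262, 392, 348 and 405 RPKM in control skin. It fell by 1.71 on the log2 scale (standard error 0.24, edgeR adjusted p = 4.34e-04), with no overlap between the groups. Col3a1, on chromosome 1 from 45311538 to 45349706, was at 120, 103, 144 and 170 RPKM in Nampt-cKO skin, against 236, 293, 353 and 350 RPKM in control skin. Its log2 fold change was −1.11 (standard error 0.19, edgeR adjusted p = 0.00123), again without overlap. For these 3 genes Nampt-cKO replicate 4 was the highest and replicate 2 the lowest of the Nampt-cKO libraries, and control replicate 1 was the lowest control.

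Ratios of chains within a library do not depend on scaling. The Col1a1 to Col1a2 ratio of RPKM was 0.825 ± 0.0558 in Nampt-cKO skin and 0.762 ± 0.0261 in control skin (SD, n = 4 each, exact two-sided permutation p = 0.114, adjusted over 3 ratios 0.171). The Col3a1 to Col1a1 ratio was 1.75, 1.63, 1.63 and 1.58 in Nampt-cKO replicates 1 to 4, against 1.22, 0.975, 1.36 and 1.08 in control replicates 1 to 4. Every Nampt-cKO library had the higher ratio, and the difference of 0.52 on the log2 scale had an exact permutation p of 0.0286, the smallest that 4 against 4 allows, and 0.0857 after adjustment over the 3 ratios. It therefore did not pass the correction. A ratio at this smallest p could pass only if another ratio also reached it, so the adjusted p cannot decide here.

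Type V collagen nucleates fibrils and sets their width, and its chains did not move alike. Col5a1, the chain common to most type V trimers, was at 7.71, 6.25, 9.38 and 9.01 RPKM in Nampt-cKO skin, against 11.1, 13.3, 18.6 and 14.0 RPKM in control skin, with no overlap (log2 fold change −0.73, standard error 0.18, edgeR adjusted p = 0.00774). Col5a2 was at 19.1, 18.0, 22.9 and 24.6 RPKM in Nampt-cKO skin, against 16.2, 18.4, 20.8 and 17.6 RPKM in control skin. These overlapped, and the log2 fold change of 0.31 did not pass (edgeR adjusted p = 0.0811, with 0.0371 to 0.206 over the alternatives). Col5a3 had a log2 fold change of 0.02 (edgeR adjusted p = 0.930). Whether the change of Col5a1 differed from that of Col5a2 was not tested.

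**Figure D3:**
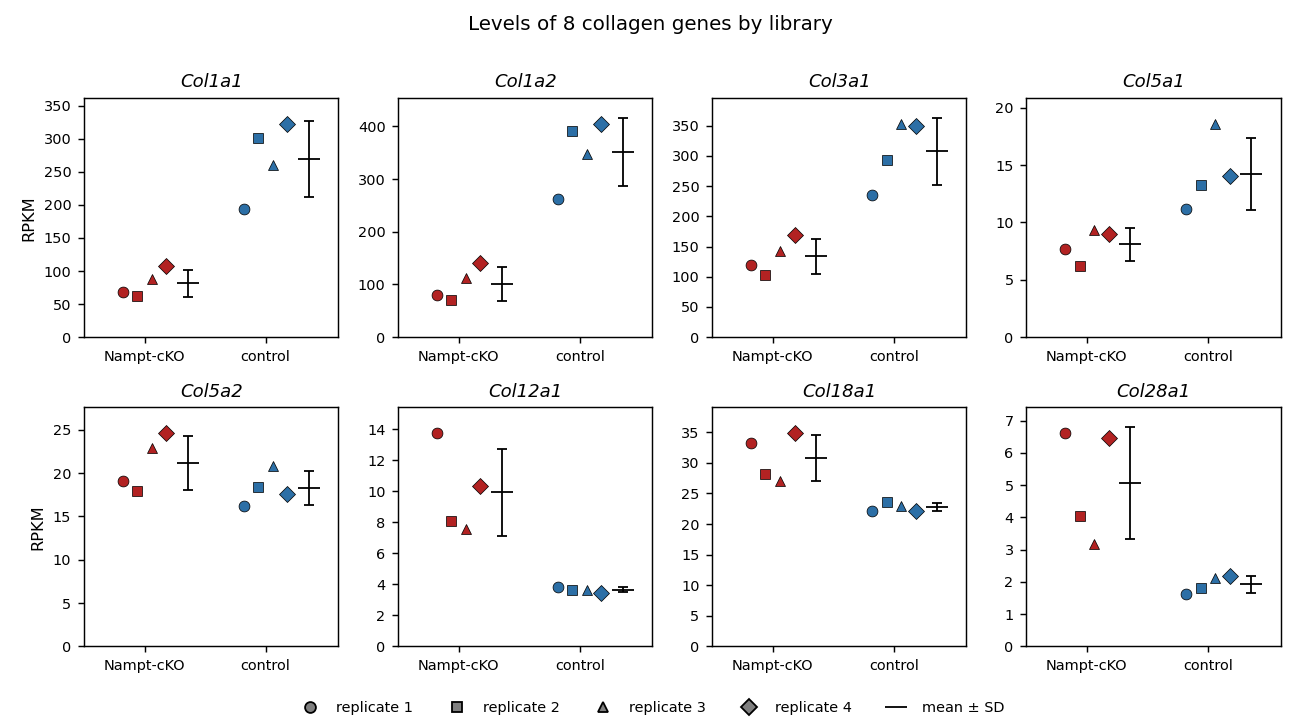
RPKM of 8 collagen genes in each library, Nampt-cKO left of control, with the mean and SD of 4 libraries as the black bar and each axis starting at 0. Col1a1, Col1a2, Col3a1 and Col5a1 lie lower in all 4 Nampt-cKO libraries, Col12a1, Col18a1 and Col28a1 lie higher in all 4, and the groups of Col5a2 overlap.

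The remaining fibrillar genes were expressed at low levels. Col27a1, a fibrillar collagen best known from cartilage, was at 2.60, 0.949, 1.14 and 2.51 RPKM in Nampt-cKO skin, against 3.10, 3.48, 3.69 and 3.43 RPKM in control skin. Its groups did not overlap, yet its call was near the threshold (log2 fold change −0.85, edgeR adjusted p = 0.0471) and was lost in 8 of 21 alternatives, which gave 0.0113 to 0.101. Col11a2, a type XI chain, was at 0.961, 0.859, 0.545 and 0.984 RPKM in Nampt-cKO skin, against 0.351, 0.531, 0.613 and 0.509 RPKM in control skin. Nampt-cKO replicate 3 lay inside the control range, and the log2 fold change of 0.82 (edgeR adjusted p = 0.0218) lost its call in 5 of 21 alternatives, which gave 0.00395 to 0.0889. Col11a1 (0.32) and Col24a1 (−0.17) did not pass.

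Col2a1, the type II collagen of cartilage, was higher at a very low level. It had 0.0730, 0.222, 0.202 and 0.145 RPKM in Nampt-cKO skin, against 0.00706, 0.0378, 0.0316 and 0.0119 RPKM in control skin, with no overlap. These values rest on 223 exon reads over the Nampt-cKO libraries and 31 over the controls, and the log2 fold change was 2.92 (standard error 0.62, edgeR adjusted p = 0.00425). Cartilage and bone markers were near 0 in both groups, summing to 0.360 to 0.927 RPKM in Nampt-cKO skin and 0.388 to 0.591 RPKM in control skin. Of these, 3 of 8 in the table could be tested, and Comp (−1.94) and Sp7 (−2.50) were lower. Acan, the cartilage proteoglycan aggrecan, had 102 exon reads over the Nampt-cKO libraries and 9 over the controls. Their part in the Col2a1 result was not tested.

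Markers of dermal fibroblasts gave mixed calls, most of them not past the test. Of 14 fibroblast markers, 5 were lower, 1 was higher and 8 did not pass, beside 22.0% lower and 23.8% higher among all genes tested. Their summed level was 527 to 915 RPKM in Nampt-cKO skin and 1033 to 1422 RPKM in control skin, without overlap. Gsn (−0.98), Mfap4 (−3.58) and Clec3b (−2.74) were lower, Pdgfra (0.88) was higher, and Dcn, the small proteoglycan decorin, had a log2 fold change of −0.03 (edgeR adjusted p = 0.951). Among 7 myofibroblast and contractile genes, Postn (1.62), Tnc (3.93) and Cthrc1 (2.31) were higher while Acta2 (−1.14) and Cnn1 (−1.43) were lower. Their part in the collagen result was not tested.

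Of the 9 basement membrane genes, 3 were called higher, 2 were called lower and 4 were not called, which is near the 23.8% higher and 22.0% lower among all genes tested. The 6 type IV chains are encoded as 3 pairs of neighbouring genes that are read away from each other. Col4a1 and Col4a2 overlap by 22 bases on chromosome 8, Col4a3 and Col4a4 by 7 bases on chromosome 1, and Col4a5 and Col4a6 are separated by 1293 bases on the X chromosome. The 200 bases before the RefSeq starts of that pair are shown because both genes were lower, from chrX:141475170-141475369 on the plus strand and chrX:141474096-141474295 on the minus strand, with capitals as above.
Col4a5: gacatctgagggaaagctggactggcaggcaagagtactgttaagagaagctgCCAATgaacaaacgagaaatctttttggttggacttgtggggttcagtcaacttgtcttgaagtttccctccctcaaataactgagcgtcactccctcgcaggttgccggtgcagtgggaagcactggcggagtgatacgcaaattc
Col4a6: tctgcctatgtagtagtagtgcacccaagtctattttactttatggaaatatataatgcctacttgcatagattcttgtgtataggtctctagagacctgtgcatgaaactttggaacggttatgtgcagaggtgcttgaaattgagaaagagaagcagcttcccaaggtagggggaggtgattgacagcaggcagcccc
The Col4a5 window held 1 CCAAT match, 147 bases before the start, and the Col4a6 window held none of the 4 motifs.

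Col4a1 and Col4a2 encode the chains of the type IV network found in nearly all basement membranes, vessels included. Col4a1 was at 47.2, 36.5, 60.4 and 64.9 RPKM in Nampt-cKO skin, against 28.2, 23.9, 31.5 and 24.4 RPKM in control skin. Each Nampt-cKO library exceeded each control, and the log2 fold change was 1.04 (standard error 0.19, edgeR adjusted p = 0.00161). Col4a2 was at 38.3, 31.1, 51.3 and 51.4 RPKM in Nampt-cKO skin, against 25.4, 21.4, 24.9 and 20.6 RPKM in control skin, also without overlap (log2 fold change 0.99, standard error 0.17, edgeR adjusted p = 0.00142). The ratio of Col4a1 to Col4a2 was 1.21 ± 0.0436 in Nampt-cKO skin and 1.17 ± 0.0710 in control skin (SD, n = 4 each, exact two-sided permutation p = 0.371). Endothelial markers summed to 54.8 to 129 RPKM in Nampt-cKO skin and 74.2 to 85.3 RPKM in control skin. Of these, 1 of 8 was lower and none of 8 higher, beside 22.0% and 23.8% of all genes tested. The part of endothelial markers in this result was not tested.

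Col4a5 and Col4a6, whose chains occur in the epidermal basement membrane, went the other way. Col4a6 was at 3.13, 1.42, 1.10 and 1.58 RPKM in Nampt-cKO skin, against 8.99, 10.2, 8.98 and 9.65 RPKM in control skin. It fell by 2.32 on the log2 scale (standard error 0.27, edgeR adjusted p = 1.79e-04), with no overlap. Col4a5 was at 5.37, 1.51, 1.32 and 2.06 RPKM in Nampt-cKO skin, against 8.89, 8.91, 8.51 and 8.75 RPKM in control skin, a log2 fold change of −1.71 (standard error 0.38, edgeR adjusted p = 0.00530). Nampt-cKO replicate 1 was the highest of its group for both genes and still lay below every control. Basal keratinocyte markers summed to 7381 to 11063 RPKM in Nampt-cKO skin and 7422 to 8465 RPKM in control skin. Of these, 3 of 8 were higher and 1 lower, beside 23.8% and 22.0% of all genes tested. The part of basal keratinocyte markers was not tested. Col4a3 (0.02) and Col4a4 (−0.05), chains best known from the kidney, stayed at or below 1.20 RPKM in every library and did not pass (edgeR adjusted p = 0.969 and 0.867).

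**Figure D4:**
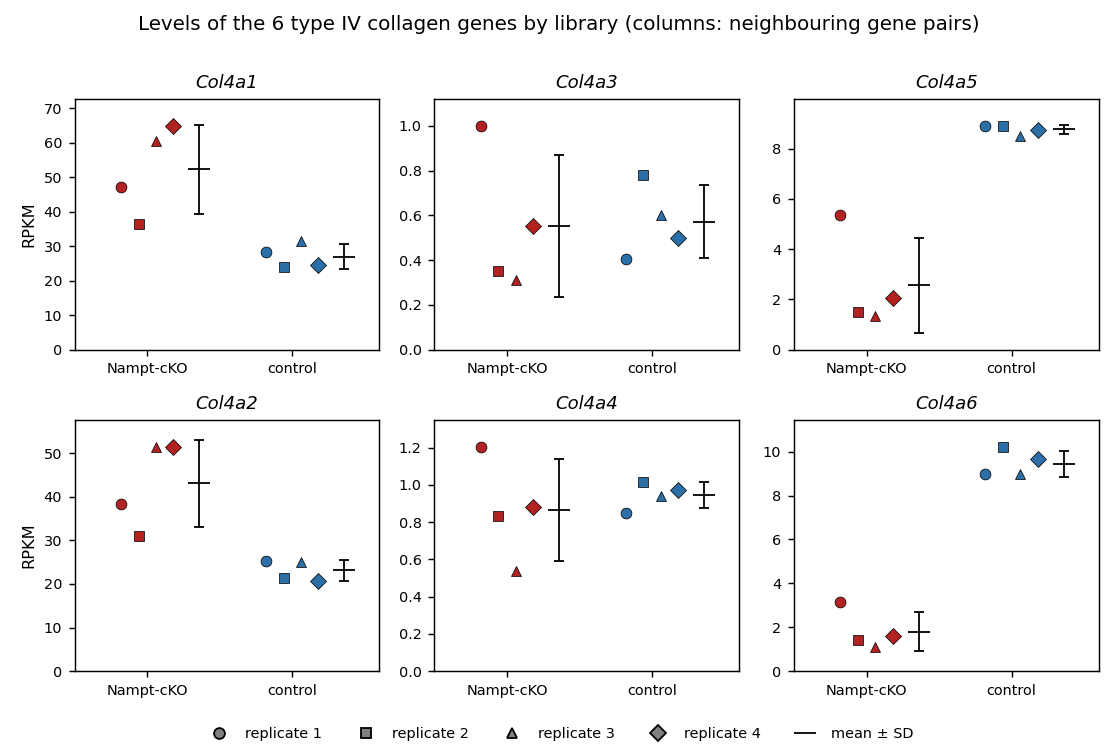
RPKM of the 6 type IV collagen genes in each library, Nampt-cKO left of control, one neighbouring gene pair per column, with the mean and SD of 4 libraries as the black bar. Col4a1 and Col4a2 lie higher in all 4 Nampt-cKO libraries, Col4a5 and Col4a6 lie lower in all 4, and Col4a3 and Col4a4 overlap.

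Of the other basement membrane collagens, Col18a1, the source of the fragment endostatin, was higher. It was at 33.2, 28.1, 27.1 and 34.9 RPKM in Nampt-cKO skin, against 22.2, 23.5, 23.0 and 22.2 RPKM in control skin, without overlap (log2 fold change 0.52, standard error 0.10, edgeR adjusted p = 0.00208). Col7a1, the anchoring fibril collagen, was at 40.8, 19.7, 10.4 and 18.9 RPKM in Nampt-cKO skin, against 45.0, 48.0, 39.2 and 37.2 RPKM in control skin. Nampt-cKO replicate 1 lay within the control range and the other 3 lay below it. The log2 fold change of −0.85 did not pass (edgeR adjusted p = 0.0565), and without Nampt-cKO replicate 1 the adjusted p was 0.00147, within 0.00147 to 0.124 over the alternatives, 7 of which passed. Col15a1 had a log2 fold change of −0.42 (edgeR adjusted p = 0.107, and 0.0252 with the replicate number as a block).

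Of the 23 other collagens, 19 were tested, of which 2 were called higher, 5 were called lower and 12 were not called, beside the same shares of all genes. Col12a1, a FACIT that bridges fibrils and cells, was at 13.8, 8.10, 7.58 and 10.3 RPKM in Nampt-cKO skin, against 3.84, 3.65, 3.66 and 3.44 RPKM in control skin. The groups did not overlap, and the log2 fold change was 1.53 (standard error 0.16, edgeR adjusted p = 1.10e-04). Col28a1, which resembles type VI chains in its von Willebrand factor A domains, was at 6.61, 4.05, 3.16 and 6.45 RPKM in Nampt-cKO skin, against 1.62, 1.81, 2.13 and 2.17 RPKM in control skin. It was 2.78-fold higher without overlap (log2 fold change 1.47, standard error 0.24, edgeR adjusted p = 9.36e-04).

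Among the remaining FACITs, Col14a1, a fibril-surface collagen, was at 0.784, 0.203, 0.251 and 0.610 RPKM in Nampt-cKO skin, against 1.43, 1.03, 2.20 and 2.21 RPKM in control skin. It was lower without overlap (log2 fold change −1.82, standard error 0.45, edgeR adjusted p = 0.00847). Col16a1, the most abundant FACIT, was at 27.6 ± 9.12 RPKM in Nampt-cKO skin and 35.1 ± 1.82 RPKM in control skin (SD, n = 4 each), and did not pass (log2 fold change −0.26, edgeR adjusted p = 0.325). Nampt-cKO replicates 1 and 4 lay within the control range and replicates 2 and 3 below it. Col9a2, Col9a3, Col19a1 and Col20a1 did not pass either, with log2 fold changes between −0.87 and 0.44. In single alternatives, Col9a3 passed without Nampt-cKO replicate 1 (edgeR adjusted p = 0.0278) and Col19a1 in total gene reads (edgeR adjusted p = 0.00606).

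Type VI collagen gave no call in its 3 abundant chains. Col6a1 was at 61.2, 33.9, 46.0 and 57.2 RPKM in Nampt-cKO skin, against 49.3, 49.9, 50.4 and 47.0 RPKM in control skin, and its log2 fold change of 0.10 changed sign with the processing. Col6a2 (0.12) and Col6a3 (0.01) likewise did not pass, with edgeR adjusted p values of 0.529 and 0.952, although without Nampt-cKO replicate 2 the adjusted p of Col6a2 was 0.0428. The rarer Col6a5 was at 0.273, 0.151, 0.267 and 0.337 RPKM in Nampt-cKO skin, against 0.521, 0.438, 0.502 and 0.480 RPKM in control skin (log2 fold change −0.83, edgeR adjusted p = 0.0259, with 0.00499 to 0.0678 over 21 alternatives, 4 of which lost the call). Col6a6 was at 0.377, 0.0755, 0.0463 and 0.142 RPKM in Nampt-cKO skin, against 0.706, 0.859, 0.435 and 0.341 RPKM in control skin. Its groups overlapped, and the call (log2 fold change −1.81, edgeR adjusted p = 0.0336) was lost in 5 of 21 alternatives, which gave 0.00212 to 0.0913.

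Short-chain and transmembrane collagens gave 1 lower call each. Col8a1, a network collagen of vessels and the eye, was at 0.444, 0.301, 0.580 and 0.700 RPKM in Nampt-cKO skin, against 1.32, 1.22, 1.04 and 1.03 RPKM in control skin, without overlap (log2 fold change −1.09, standard error 0.28, edgeR adjusted p = 0.00989). Its partner Col8a2 was at 19.3, 5.43, 1.95 and 8.13 RPKM in Nampt-cKO skin, against 13.7, 12.3, 13.1 and 12.8 RPKM in control skin. Nampt-cKO replicate 1 exceeded every control while the other 3 lay below, and Col8a2 did not pass (log2 fold change −0.51, edgeR adjusted p = 0.446), whereas without replicate 1 the adjusted p was 0.0295, within 0.0295 to 0.704 over the alternatives. Col25a1, a transmembrane collagen known from nerve and muscle, rested on 20 exon reads over the Nampt-cKO libraries and 126 over the controls (log2 fold change −2.62, edgeR adjusted p = 0.0277). Its introns held 64 reads over the Nampt-cKO libraries and 15 over the controls, the opposite order. With intron reads added, the log2 fold change of Col25a1 was −0.74 (edgeR adjusted p = 0.197, within 0.00497 to 0.197 over 19 alternatives, 6 of which lost the call). Col13a1, a transmembrane collagen, was at 1.86 ± 0.275 RPKM in Nampt-cKO skin and 1.43 ± 0.269 RPKM in control skin (SD, n = 4 each), and the groups overlapped. It did not pass (log2 fold change 0.47, edgeR adjusted p = 0.0522), but passed in 7 of 21 alternatives, which gave 0.0282 to 0.238, with 0.0349 without Nampt-cKO replicate 2 and 0.0282 without control replicate 4. Col23a1 (−0.00) did not pass.

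The low-count filter removed 4 members. Over the 4 Nampt-cKO libraries against the 4 controls, exon reads came to 46 against 36 for Col22a1, 6 against 30 for Col9a1, 6 against 60 for Col26a1 and 38 against 14 for Col10a1. Col10a1 lies within Nt5dc1, a more abundant gene, and the strand of the counting is not stated, so its reads cannot be told apart from those of Nt5dc1. No difference is read from these 4 genes.

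Intron reads can come from unspliced RNA or from DNA, which was not examined, and are other reads of the same libraries. Of 35 members that could be tested on them, 2 were higher and 11 lower (edgeR adjusted p under 0.05), where 13.8% of all 15895 genes tested were higher and 14.4% lower. Col12a1 (intron log2 fold change 1.98) and Col28a1 (1.74) were higher, as in exon reads. Col1a1 (−2.25), Col3a1 (−1.26), Col5a1 (−1.26), Col4a5 (−1.92), Col4a6 (−2.45) and Col27a1 (−1.03) were lower in both kinds of reads. So was Col1a2, whose introns were at 27.7, 15.8, 32.9 and 17.5 CPM in Nampt-cKO skin, against 77.4, 100, 110 and 88.7 CPM in control skin (edgeR adjusted p = 6.80e-05). Here CPM is intron reads scaled to the library's intron reads over the tested genes, adjusted by its TMM factor. Col7a1 (−1.28), Col15a1 (−0.66), Col16a1 (−0.64) and Col19a1 (−2.02) passed in intron reads without passing in exon reads. Conversely, Col14a1, Col8a1, Col6a5 and Col6a6 were lower in exon reads and did not pass in intron reads, and Col25a1 could not be tested on them. Col14a1 introns held 87 reads over the Nampt-cKO libraries and 89 over the controls (edgeR adjusted p = 0.948).

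The type IV chains that were higher in exon reads did not pass in intron reads. Col4a1 introns were at 65.5, 23.0, 51.9 and 65.7 CPM in Nampt-cKO skin, against 57.3, 35.6, 56.2 and 35.8 CPM in control skin. These overlapped widely (intron log2 fold change 0.16, standard error 0.29, edgeR adjusted p = 0.725). Col4a2 had an intron log2 fold change of 0.57 (edgeR adjusted p = 0.0775) and Col18a1 of 0.41 (edgeR adjusted p = 0.146). The difference between exon and intron changes was not tested. Introns took 12.7% to 16.5% of gene reads in Nampt-cKO libraries and 10.8% to 11.8% in control libraries, and the part of this in the intron values was not tested.

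**Figure D5:**
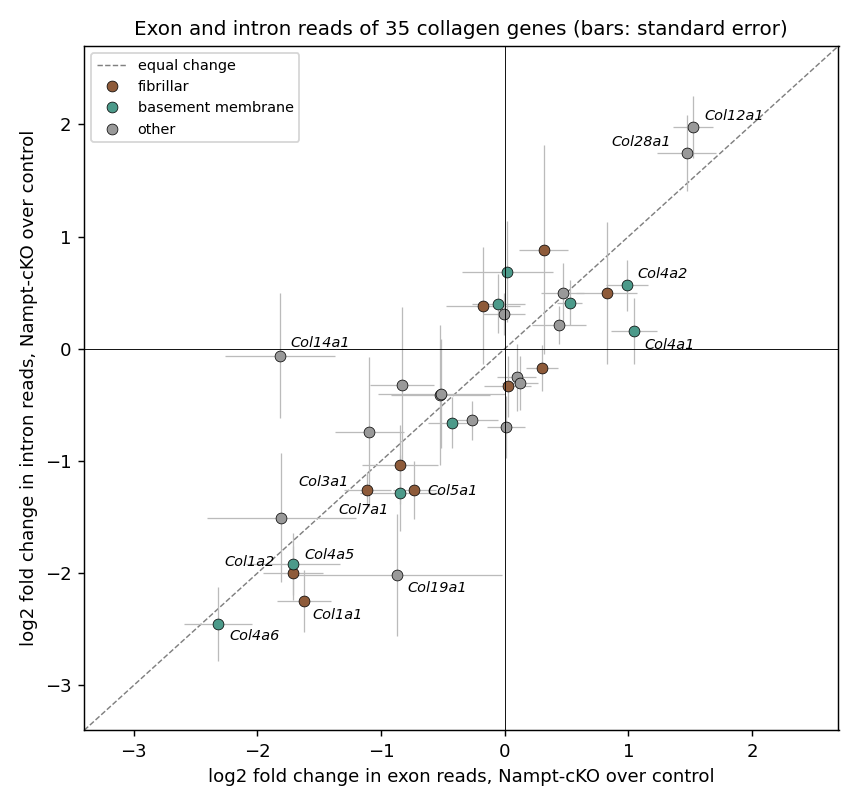
Log2 fold change of Nampt-cKO over control in exon reads (horizontal axis) and intron reads (vertical axis) for the 35 collagen genes tested in both, with standard errors as bars and the dashed line where both are equal. Col1a1, Col1a2, Col4a5 and Col4a6 lie at the lower left, Col12a1 and Col28a1 at the upper right, and Col4a1 lies at 1.04 in exon reads and 0.16 in intron reads.

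Like most genes, the collagen genes varied more between Nampt-cKO libraries than between controls. The median SD of log2 CPM over the 39 tested members was 0.487 in Nampt-cKO skin and 0.199 in control skin, against 0.309 and 0.151 over all genes tested, and 34 of 39 members (87.2%) were more variable in Nampt-cKO skin, where 13843 of all 17286 genes tested (80.1%) were. Nampt-cKO replicate 4 was the highest of its group for 21 members and replicate 1 for 13, while replicate 2 was the lowest for 23 and replicate 3 for 13. Nampt-cKO replicates 1 to 4 lay within the control range for 11, 6, 9 and 6 of the 39 members.

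Genes that fold, trim, organize, bind or cleave collagen gave calls in both directions. Of 60 such genes in 5 lists, 20 were higher, 12 lower and 28 not past the test, beside 23.8% and 22.0% of all genes. Without control replicate 1, 13 were higher. Among 19 genes of folding and modification in the endoplasmic reticulum, 9 were higher and 4 lower. Of 21 alternatives, the higher call of Plod1 was lost in 7 and the lower call of P3h4 in 4. P4hb, a subunit of prolyl 4-hydroxylase and a general protein disulfide isomerase, was at 195 ± 21.0 RPKM in Nampt-cKO skin and 119 ± 2.67 RPKM in control skin (SD, n = 4 each, log2 fold change 0.80, edgeR adjusted p = 1.88e-04). The lysyl hydroxylases Plod2 (1.61) and Plod3 (0.70) and the prolyl 3-hydroxylase P3h1 (0.65) were also higher. The collagen galactosyltransferase Colgalt2 (−1.39) and Creb3l1 (−1.24), a transcription factor that acts on type I collagen genes in bone, were lower.

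In propeptide removal and crosslinking, 4 of 13 genes were higher and 2 lower. Adamts14, an enzyme that trims the amino-terminal propeptide, was at 1.28 ± 0.247 RPKM in Nampt-cKO skin and 10.3 ± 0.613 RPKM in control skin (SD, n = 4 each, log2 fold change −2.93, edgeR adjusted p = 1.72e-06). Pcolce2 (−1.67), which enhances carboxyl-terminal trimming, was lower too. The protease that performs that trimming, Bmp1 (0.38), its relative Tll1 (0.71), Adamts3 (1.56) and the crosslinking enzyme Lox (1.47) were higher. Of 21 alternatives, the call of Tll1 was lost in 13, those of Adamts3 and Lox in 9 each and that of Bmp1 in 4.

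Of 12 fibril-organizing proteins, 1 was higher and 3 were lower. Fbln1 (1.21), a matrix glycoprotein, was higher, and Tnxb (−1.56), Ogn (−0.99) and Sparc (−0.51) were lower. Tenascin X, encoded by Tnxb, organizes dermal fibrils, and its level was 6.53 ± 1.98 RPKM in Nampt-cKO skin and 20.5 ± 3.19 RPKM in control skin (SD, n = 4 each, edgeR adjusted p = 4.95e-04). Of 9 collagen receptors and uptake genes, the integrin subunits Itgb1 (0.63) and Itga1 (0.73) were higher and Itga2 (−0.54) was lower. The calls of Sparc, Itga1 and Itga2 were lost in 5, 4 and 10 alternatives.

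Of 7 collagen-cleaving enzymes, 4 were higher and 2 lower. The collagenase Mmp13 (4.13) was at 0.667 ± 0.147 RPKM in Nampt-cKO skin and 0.0399 ± 0.0120 RPKM in control skin (SD, n = 4 each). Mmp8 (5.45), the neutrophil collagenase, was at 1.55 ± 1.15 RPKM in Nampt-cKO skin and 0.0386 ± 0.0391 RPKM in control skin, and both were higher. Mmp14, a membrane-bound collagenase, was at 166 ± 53.5 RPKM in Nampt-cKO skin and 81.2 ± 11.6 RPKM in control skin (SD, n = 4 each, log2 fold change 1.13, edgeR adjusted p = 0.00378). The lysosomal collagenase Ctsk (1.66) was higher, whereas the gelatinase Mmp9 (−1.77) and the fibroblast protease Fap (−1.21) were lower. The calls of Ctsk and Fap were lost in 3 and 2 alternatives.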

How the data were processed

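Poly-A RNA of skin was sequenced in 4 Nampt-cKO and 4 control samples. The table that the authors deposited holds whole-number read counts for each gene and library, over exons (all or uniquely mapped), whole genes, introns and exon junctions, and RPKM. The deposited RPKM values equal total exon reads scaled to exon length and library reads, where exon reads are 80.1% to 86.2% of the reads in that denominator. Exon lengths, exon numbers and coordinates are other columns of the deposited table. P-values and fold changes of the authors' comparison stand in the deposited table too and were not used. The submitters' processing notes name GRCm38 (mm10). The aligner is not given in the sources used here, nor is the counter. Starts in the table were taken as counted from 0, since 17985 of 23231 genes with the same end as in RefSeq start 1 base lower and 145 start at the same base, and they are printed counted from 1. Columns left unmapped to a sample numbered 0.

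Total exon reads were fitted over all genes in R 4.3.3 by edgeR 4.0.16 (scaling by TMM, with factors of 0.963 to 1.027, filterByExpr defaults, quasi-likelihood test, condition as the only term, Benjamini-Hochberg adjustment over 17286 genes, threshold 0.05). The standard error is the log2 fold change divided by the square root of the F statistic. Intron reads were fitted alone in the same way. Ratios were tested by exact two-sided permutation. Alternatives were scaling by RLE factors, by upper-quartile factors or by totals alone, TMM factors without the collagens, DESeq2 1.42.0, no filter and a stricter filter, unique exon reads, total gene reads, limma 3.58.1 on log2(RPKM + 0.1) and log2(RPKM + 1), replicate number as a block, and each library left out. Junction (exon-exon) reads, and a separate look at the results without Nampt-cKO replicate 1, were chosen after seeing the data. The members, 5 pathway lists and 14 marker lists were chosen with earlier results of these data known. Named were members past the test, the 2 most abundant of each class, members without overlap between groups, and up to 6 genes of each pathway list by p-value with the most abundant one. Col15a1, Col4a3, Col4a4, Col5a2, Col5a3, Col7a1, Col9a2, Col9a3, Col11a1, Col19a1, Col20a1, Col24a1, Plod1, P3h4, Acan and the marker genes outside the 3 most abundant of their list were named after their values were seen, as were members with fewer reads. Promoter sequences are from RefSeq (GRCm38.p6), in which 34 of the 43 members have an entry. Scripts used Python 3.11.15 with pandas 2.3.3 and SciPy 1.17.1 and were tested on simulated data. Reads are not independent molecules, and where genes overlap, reads of both strands may be mixed.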

Additional observations from a re-analysis of the deposited data

Results flagged for a closer look

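Of 50 groups of 4 libraries examined for a library far from the rest, 1 stood apart, where chance alone flags about 1 in 20. Col23a1, a transmembrane collagen, was at 4.82 RPKM in Nampt-cKO replicate 2, and the nearest of the other Nampt-cKO libraries was at 7.44 RPKM. That gap was 0.951 of the range of the group, above Dixon's critical value for 4 samples. Replicate 2 was also the lowest Nampt-cKO library for 23 of the 39 tested members.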

How the results depend on the processing

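Of the 19 members past the test, 14 kept their call in every alternative that gave them a value, and Col27a1, Col11a2, Col6a6, Col6a5 and Col25a1 lost it in at least 1. Members higher numbered 6 to 10 and members lower 8 to 15 with 1 library left out, their median log2 fold change ran from −0.39 to −0.04, and members in intron reads numbered 2 to 3 higher and 8 to 13 lower. In intron reads, 15 members were lower with scaling by library totals only, beside 11 in the main fit. With exon library sizes and factors 10 were lower, and with the replicate number as a block 12. Pathway genes ran from 13 to 20 higher and from 9 to 14 lower, with 13 higher without control replicate 1. The share difference ran from −0.422 to −0.325 percentage points, and it was −0.371 with all libraries and −0.171 by RPKM, which divides reads by exon length and put the collagens at 0.192% in Nampt-cKO skin and 0.363% in control skin. The log2 ratio differences ran from 0.44 to 0.60 for Col3a1 to Col1a1, 0.08 to 0.15 for Col1a1 to Col1a2 and 0.03 to 0.09 for Col4a1 to Col4a2, and 3 against 4 libraries cannot give p below 0.0571. Unique and total exon reads were equal in all libraries for 36 of the 43 members, among them the 5 genes of the ratios, so that the unique-read alternative could not move those ratios and says nothing of their stability. Col23a1, at −0.00, was 0.020 with TMM factors without the collagens, 0.011 with the stricter filter, 0.048 in total gene reads, 0.042 in exon-exon reads, and −0.099 to 0.13 with 1 library left out. Col6a1, at 0.10, was −0.023 on log2(RPKM + 0.1), −0.022 on log2(RPKM + 1) and −0.0069 to 0.24 with 1 library left out. The cause was not tested. The labels do not say that replicate numbers pair the samples. Same-number correlations of deviations were −0.0541 to 0.179 and others −0.230 to 0.140, with 3 of 4 Nampt-cKO and 2 of 4 control libraries correlating best with their own number. With the replicate number as a block, 7 members were higher and 14 lower. Depth limits the members under 300 exon reads over all libraries, among them Col2a1 and Col25a1.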

Other observations

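Markers of other skin cell types give the setting of the collagen values. Their counts stand beside 23.8% higher and 22.0% lower among all genes tested. Suprabasal keratinocyte markers were lower for 5 of 7, with a summed level of 790 to 2587 RPKM in Nampt-cKO skin and 6248 to 6934 RPKM in control skin, and Krt10 (−2.26) and Lor (−2.83), which mark differentiating epidermis, were among them. Hair follicle markers were higher for 2 of 8 tested and lower for 0, dermal papilla markers higher for 1 of 8 and lower for 2, and Schwann cell markers higher for 1 of 6 and lower for 1. Macrophage markers were higher for 3 of 7 and lower for 1. Their summed level was 166 to 362 RPKM in Nampt-cKO skin and 113 to 226 RPKM in control skin, with overlap. Adipocyte markers were lower for 3 of 8, and vascular smooth muscle and pericyte markers higher for 1 of 8 and lower for 2. Whether the counts of any marker list differ from the shares of all genes was not tested.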
